A study of Homo sapiens with 6 samples.

Results

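HCT116 is an established line from a human colorectal carcinoma and carries wild-type p53. In these cells 26 of the 27942 genes in the count table were close to silent without treatment and had more counts in every library after oxaliplatin, by margins that ran from 1 count to 33. The genes were chosen on the raw counts themselves: 15 or fewer counts summed over the 3 untreated libraries (NT), 30 or more summed over the 3 libraries of cells given oxaliplatin (OXA, 0.5 µM, 24 h), and every OXA count above every NT count. Genes whose deposited names begin with KRT, COL or LINC, or end in -AS plus digits, were set aside, which removed 5 of the 31 genes that met the count limits (KRT32, COL5A3, COL5A1, KRT17 and KRT16). Because the counts chose the genes, their difference between NT and OXA is described here and not tested. Both groups are the same line grown in RPMI with serum, and NT cells are labelled as having had no treatment. Polyadenylated RNA was sequenced with a kit that keeps the strand. The labels do not say whether the replicates were separate cultures, so any p-value measures only the spread between these libraries. In RNA from whole cultures, a few cells with many transcripts and many cells with few cannot be told apart.

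Oxaliplatin is a platinum compound that forms crosslinks in DNA, and cells with intact p53 answer such damage by transcribing p53 target genes that stop the cell cycle or start apoptosis. Among the genes that a colon carcinoma line does not use are many of other tissues, such as the cornified layer of the skin, synapses, muscle, blood cells or the germline. RIMS4, the gene that marks the set, belongs to the RIM family, which organizes the release of vesicles at the active zone of synapses.

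The libraries held between 32979521 and 40967880 counts. Epithelial markers were detected, 8 of 8, and all but VIL1 (39 to 95 counts) were abundant. Their summed level was 2272 to 3312 CPM (counts scaled to the depth of the library) in NT and 3545 to 4328 in OXA. Most of that sum was KRT8, KRT18 and KRT19. The difference in that sum was not tested, and 0 of the 8 passed an edgeR adjusted p of 0.05, where 2.78% of all 13727 tested genes were higher and 2.29% lower. A fit with a term for the replicate number (the replicate block) called 4 of the 8 higher and 1 lower, and 12.1% and 10.9% of all tested genes. The epithelial markers went both ways. KRT8, KRT18, KRT19 and CLDN4 had edgeR log2 fold changes of 0.47, 0.31, 1.29 and 0.49. Those of EPCAM, CDH1, CLDN7 and VIL1 were -0.040, -0.20, -0.099 and -0.38. Markers of T and B cells summed to 0.941 to 1.38 CPM in NT and 0.781 to 1.18 in OXA, with CD3D, CD3G and MS4A1 at 0 in every library. Most of that sum was CD8A, with 38, 18 and 34 counts in NT and 24, 25 and 18 in OXA. Endothelial markers summed to 0.823 to 1.09 in NT and 0.606 to 1.17 in OXA, mostly VWF, with CLDN5 and ERG at 0. Myeloid markers lay at 5.19 to 6.23 in NT and 5.94 to 6.87 in OXA, mostly CD68 (152 to 205 counts in NT, 180 to 237 in OXA), with FCGR3A at 0. Fibroblast markers had overlapping ranges, up to 8.55 in both groups, mostly COL1A1, with DCN, LUM and THY1 at 0. Neuronal markers lay at 63.8 to 124.2 in NT and 73.4 to 115.1 in OXA, mostly TUBB3 and MAP2, with NEFM at 0. No gene of the T and B cell, myeloid, fibroblast or endothelial lists passed an edgeR adjusted p of 0.05, and of the neuronal list MAP2 was lower in OXA (log2 fold change -0.67, edgeR adjusted p = 0.0408). Of 6 fits that each lacked a library, only the one lacking NT library 1 kept that call.

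Across 4501 genes with at least 1 count and an NT sum of 15 or fewer, the 26 genes were 0.578%. The same limits with the groups exchanged, an OXA sum of 15 or fewer, an NT sum of 30 or more and no overlap, were met by 20 of 4468 genes, or 0.448%. With genes set aside by name, the number of genes meeting the rule was therefore close to the number meeting the exchanged rule. Before that step, 31 genes met the rule and 21 the exchanged rule. The strength of the separation differed more than the number. A gap of 10 or more counts between the lowest OXA and the highest NT library was found in 10 of the 26 genes and, the other way round, in 1 of the 20. That 1 gene was AC034102.2, with 405, 114 and 171 counts in NT and 0 in each OXA library. The summed count in the higher group had a median of 46 over the 26 genes and of 37.5 over the 20 genes of the exchanged rule, and 11 of the 26 against 4 of the 20 had 50 or more. These are descriptions of counts that the rules used.

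**Figure D1:**
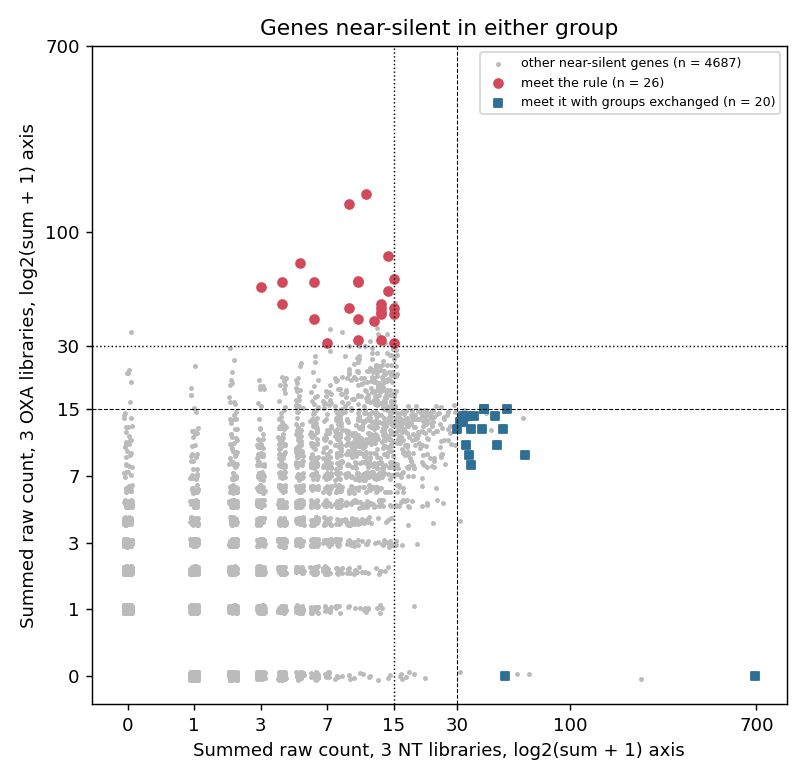
Summed raw counts of the 3 NT libraries (horizontal) and the 3 OXA libraries (vertical), on log2(sum + 1) axes, for genes with a sum of 15 or fewer in at least 1 group. Red points are the 26 genes meeting the rule and blue squares the 20 genes meeting it with the groups exchanged. Dotted lines mark the limits of 15 and 30 of the rule and dashed lines those of the exchanged rule. Grey points have a small random shift, and FLG (150) and HRNR (134) stand above the other red points.

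A further 11 near-silent genes reached 30 counts in OXA but overlapped NT in at least 1 library, and 17 did so in the exchanged direction. TMEM265 shows such an overlap, with 34 counts in OXA library 2 and 0 in the other 5 libraries. Just inside the limits, SLC25A34 and AC026412.3 had an OXA sum of 31, and PIWIL2, CYP4F2, PCDHGA11 and AC026412.3 an NT sum of 15. Just outside, RUNDC3A, CBS, AL021068.1 and AC005020.2 had an OXA sum of 29. CBS, which encodes an enzyme of cysteine synthesis, had 0, 0 and 2 counts in NT and 12, 8 and 9 in OXA, a wider separation than several genes inside. On the other limit, SPATA18 and AC061975.6 had an NT sum of 16 and AC025165.5 of 17.

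None of the 26 genes was at 0 in all 3 NT libraries, and 5 had a 0 in at least 1 of them (HRNR, CXCR2, SCO2, RIMS4 and AC139530.1). Their NT sums ran from 3 to 15 with a median of 10.5, and no NT library exceeded 9 counts for any of them. In OXA, single counts ran from 7 to 67. Summed over the 26 genes, the level was 2.18, 2.53 and 2.75 CPM in NT libraries 1 to 3 and 12.8, 14.9 and 12.5 in OXA libraries 1 to 3. Levels per length stayed low in OXA as well. In CPM per kb of transcript, the 26 genes had a median of 0.0285 in NT and 0.120 in OXA, where the 13727 genes tested by edgeR had a median of 7.07 in OXA. WFDC2, at 1.28, was the only one of the 26 above 1. These genes were thus scarce in NT and remained scarce in OXA, and "silent" and "switched on" describe their raw counts only loosely.

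**Figure D2:**
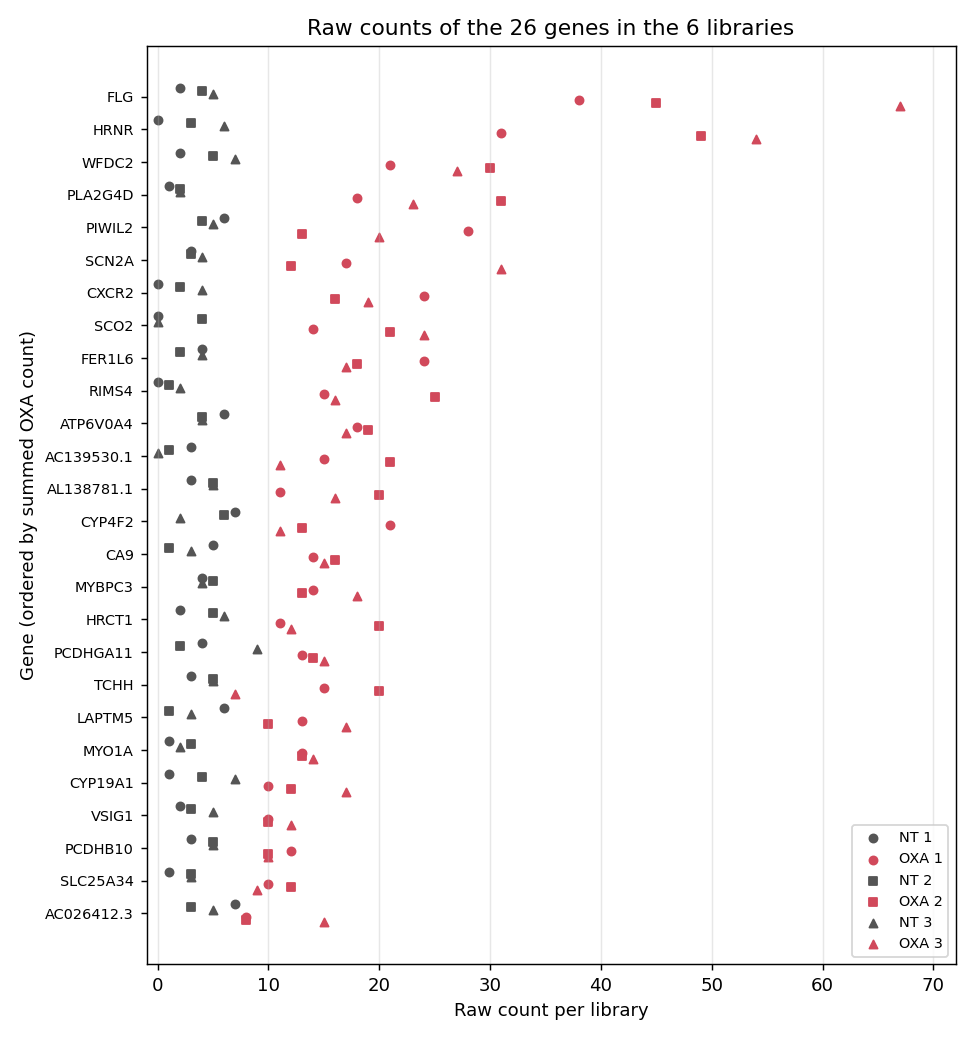
Raw counts per library of the 26 genes, ordered by their summed OXA count. Grey symbols are the 3 NT libraries and red symbols the 3 OXA libraries, with 1 symbol shape per replicate number, drawn slightly apart. All NT counts lie at 9 or fewer, and FLG and HRNR lie farthest to the right, at 31 to 67 counts in OXA.

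Of the 26 genes, 24 are protein-coding and 2 are long noncoding RNAs in GENCODE 44. Among the near-silent genes with an annotation, 66.4% are protein-coding and 33.1% long noncoding RNAs. The 26 were also longer, with a median transcript of 3216 nt against 1840 nt. Both properties were also seen in the exchanged direction, where all 20 genes are protein-coding with a median of 3306 nt, and a longer transcript reaches 30 counts at a lower level per length. Both noncoding genes, deposited as AL138781.1 and AC026412.3, carry LINC names in GENCODE 44 (LINC02846 and LINC03067) and would be set aside under those names, leaving 24.

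The 2 genes with the most counts encode giant proteins of the cornified layer of the skin, built of repeats behind an S100-type calcium-binding domain. FLG, which encodes filaggrin (ENSG00000143631, chromosome 1 of GRCh38 from 152302165 to 152325239), had 38, 45 and 67 raw counts in OXA libraries 1 to 3 against 2, 4 and 5 in NT libraries 1 to 3. Scaled to depth, the OXA sum was 13.6 times the NT sum, with an exact 95% interval of 7.38 to 27.8 that covers counting error only. The rule selected on these same counts, so the ratios of the set and their intervals are no test of a difference. HRNR, which encodes hornerin (ENSG00000197915, chromosome 1 from 152212076 to 152224193), had 0, 3 and 6 counts in NT and 31, 49 and 54 in OXA, a ratio of 14.8 (7.59 to 33.2). In both genes the lowest OXA library had 25 or more counts above the highest NT library.

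TCHH, which encodes trichohyalin, a structural protein of the hair follicle from the same family and the same stretch of chromosome 1, was at the weak end of the set. It had 3, 5 and 5 counts in NT and 15, 20 and 7 in OXA, so that OXA library 3 lay only 2 counts above the highest NT libraries. The gap between HRNR and FLG is 78.0 kb, that between TCHH and HRNR 96.6 kb and that between TCHH and FLG 187 kb. Other genes of this family in the same cluster were not detected to any extent: FLG2 had 1 count in all 6 libraries, RPTN 2, and TCHHL1 and CRNN 0. No 2 of the 26 genes lay within 50 kb of each other. The other pairs within 1 Mb were HRCT1 and CA9 (225 kb), PCDHB10 and PCDHGA11 (225 kb) and RIMS4 and WFDC2 (659 kb).

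FLG and CXCR2 were also the only 2 of the 18 genes with an entry among the RefSeq promoters in which a p53-type sequence was found, and their upstream sequences are shown for that reason. The search looked for the p53 full site, a pair of decamers with no spacer, on both strands (its consensus reads the same on either), with at most 2 mismatches in 20 letters and the C and G of each core intact. The 250 bases before the RefSeq start (GRCh38.p14) are given 5′ to 3′ on the strand of the gene, with the matched 20 bases in capitals.
FLG, chr1:152325240-152325489, minus strand: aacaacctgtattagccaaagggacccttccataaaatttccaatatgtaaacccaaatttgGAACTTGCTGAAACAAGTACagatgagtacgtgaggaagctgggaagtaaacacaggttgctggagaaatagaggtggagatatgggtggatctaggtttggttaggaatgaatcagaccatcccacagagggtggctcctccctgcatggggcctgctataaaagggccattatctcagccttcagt
CXCR2, chr2:218125778-218126027, plus strand: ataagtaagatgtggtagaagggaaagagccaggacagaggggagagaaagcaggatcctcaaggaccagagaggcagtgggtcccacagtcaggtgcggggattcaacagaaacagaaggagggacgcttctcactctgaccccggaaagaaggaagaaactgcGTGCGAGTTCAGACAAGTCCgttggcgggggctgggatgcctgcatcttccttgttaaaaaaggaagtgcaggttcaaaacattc

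Of all 27305 RefSeq promoters, 0.271% held such a match, and of those of near-silent genes 0.434%. Within 2 kb either side of the GENCODE gene start, 3 of the 26 genes (11.5%) held at least 1 match, where the share was 3.12% over all 27703 genes scanned and 3.68% over the near-silent genes. Among the 381 genes called higher in OXA it was 12.6%, in a list of 48 known p53 targets 31.3% (15 genes), and among the genes of the exchanged rule 2 of 20 held one. Genes of the set were not left out of the 381, of the near-silent genes or of all genes scanned, so those shares are not independent of theirs. The 4 matches of the 26 genes each had 2 mismatches. Distances run from the GENCODE gene start to the centre of the match, and sequences are printed on the strand of the gene with the 4-base core of each decamer in capitals.
FLG, chr1:152325408-152325427, -178 nt from the gene start: gaaCTTGctgaaaCAAGtac
FLG, chr1:152324429-152324448, 801 nt after the gene start: aagCAAGagtaaaCTTGtcc
CXCR2, chr2:218125943-218125962, 664 nt after the gene start: gtgCGAGttcagaCAAGtcc
VSIG1, chrX:108045077-108045096, 117 nt after the gene start: agcCTAGtccaggCAAGcta

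A match is a description of letters and says nothing of binding. For VSIG1 it lies after the gene start, and for CXCR2 it lies after the GENCODE gene start but before the RefSeq start.

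CpG content was lower in the promoters of the set than in those of expressed genes. Many genes that are active in all tissues have promoters rich in CpG dinucleotides, whereas promoters of tissue-restricted genes are often poor in them. The ratio of observed to expected CpG over 300 bases had a median of 0.217 in the 18 promoters, 0.381 in 2306 promoters of near-silent genes and 0.839 in 10740 promoters of genes tested by edgeR. A ratio over 0.6 was found in 2 of the 18 (11.1%), WFDC2 (0.666) and PCDHGA11 (0.816), against 35.9% of the near-silent and 82.5% of the tested genes. Under the exchanged rule 4 of 13 promoters (30.8%) exceeded 0.6, with a median of 0.304. The lowest values of the set were those of CYP4F2 (0.0469), HRNR (0.0566) and FLG (0.0644), each with 1 CpG in 300 bases. With 18 promoters these shares carry a wide uncertainty and were not tested.

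**Figure D3:**
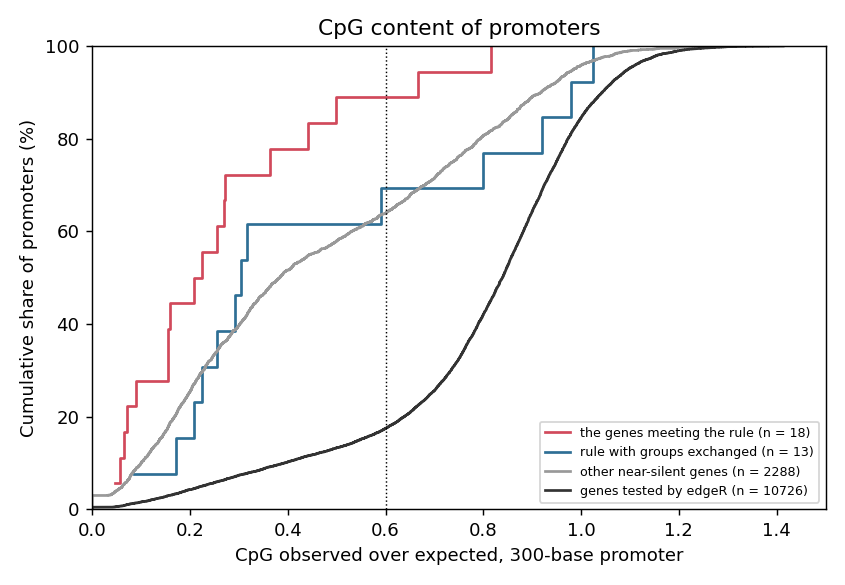
Cumulative share of promoters (vertical, in percent) by the ratio of observed to expected CpG over 300 bases (horizontal). The red line is the 18 promoters of the set, blue the 13 of the exchanged rule, grey other near-silent genes and black genes tested by edgeR. The dotted line marks 0.6, which 2 of the 18 promoters exceed. The genes of the set are left out of the grey and black lines.

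RIMS4 (ENSG00000101098, chromosome 20 from 44751808 to 44810546) had the lowest NT sum of the set. It was counted 0, 1 and 2 times in NT and 15, 25 and 16 times in OXA, a ratio of sums of 18.6 with a counting interval of 6.05 to 92.9. All OXA libraries lay at least 13 counts above the highest NT library, yet the level per length reached only 0.0978 CPM per kb of transcript in OXA, from 0.00498 in NT. Of the other RIM genes, neither of the 2 tested passed. RIMS1 was at 0 in all 6 libraries, RIMS2 had 27, 19 and 15 counts in NT and 16, 21 and 21 in OXA (log2 fold change -0.046, edgeR adjusted p = 0.957), and RIMS3 had 1012, 1191 and 1415 in NT and 961, 941 and 1219 in OXA (log2 fold change -0.18, edgeR adjusted p = 0.421). Per length, RIMS3 was the RIM gene with the highest level in both groups, at 4.61 in NT and 3.97 in OXA.

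Other genes of the active zone and of vesicle release were looked at beside RIMS4, in a list of 31 of which 23 were tested. At an edgeR adjusted p under 0.05, 1 was higher and 1 lower, where 2.78% of all tested genes were higher and 2.29% lower. UNC13A, a priming factor for vesicles, rose from 2077 ± 213 to 2946 ± 266 normalized counts (mean ± SD, n = 3, log2 fold change 0.50 ± 0.11 SE, adjusted p = 0.0461 by edgeR). SYT1, the calcium sensor synaptotagmin 1, fell from 5110 ± 346 to 3468 ± 182 (log2 fold change -0.56 ± 0.090 SE, adjusted p = 0.0174 by edgeR). UNC13A kept its call in 1 of the 6 fits leaving out a library, without NT library 1, and SYT1 in 2, without NT library 1 or NT library 2. With the replicate block, 7 of the 23 were higher and 1 lower, where 12.1% and 10.9% of all tested genes were.

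Membrane proteins and transporters made up a second group. SCN2A, the pore of a neuronal voltage-gated sodium channel, had 3, 3 and 4 counts in NT and 17, 12 and 31 in OXA. OXA library 3 was well above the others. Its relative SCN8A, which this line expresses, had 568, 561 and 564 counts in NT and 375, 405 and 483 in OXA (log2 fold change -0.39, edgeR adjusted p = 0.10). With the replicate block the edgeR adjusted p of SCN8A was 0.0331. SCN1A, SCN3A and SCN9A had at most 6 counts in any library.

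CXCR2, the neutrophil receptor for chemokines of the CXCL8 type (ENSG00000180871, chromosome 2 from 218125289 to 218137251), had 0, 2 and 4 counts in NT and 24, 16 and 19 in OXA, a ratio of 9.80 (4.25 to 27.8). Its nearest relative and neighbour CXCR1 had 5, 0 and 5 counts in NT and 3, 10 and 4 in OXA, so the groups overlapped. Of the ligands of CXCR2, CXCL8 had 22, 14 and 30 counts in NT and 38, 19 and 39 in OXA (log2 fold change 0.58, edgeR adjusted p = 0.407), and CXCL1 and CXCL3 overlapped between the groups (log2 fold changes -0.28 and 0.064, edgeR adjusted p = 0.784 and 0.946). CXCL2, too low to be tested, had 13, 6 and 12 counts in NT and 5, 2 and 7 in OXA, and CXCL5 and CXCL6 were at 0. In a list of 62 other cytokine, chemokine and receptor genes, 19 were tested and 1 was higher, EBI3, a subunit of interleukin 27, from 3, 7 and 15 raw counts to 38, 54 and 45 (log2 fold change 2.50 ± 0.46 SE, adjusted p = 0.0258 by edgeR). Over all tested genes 2.78% were higher. EBI3 kept its call in 2 of the 6 fits leaving out a library, without NT library 1 or NT library 3. With the replicate block 3 of the 19 were higher and 1 lower, where 12.1% and 10.9% of all tested genes were.

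FER1L6, a ferlin with repeated C2 domains, had 4, 2 and 4 counts in NT and 24, 18 and 17 in OXA. MYOF, the ferlin that this line expresses, had 10194 to 12011 counts in NT and 11602 to 15007 in OXA (log2 fold change 0.28, edgeR adjusted p = 0.0864), and with the replicate block its edgeR adjusted p was 0.0122. ATP6V0A4, the renal form of a membrane subunit of the proton pump V-ATPase, had 6, 4 and 4 counts in NT and 18, 19 and 17 in OXA, an even level across the treated libraries. Of the forms that other tissues use, ATP6V0A1 and ATP6V0A2 had edgeR adjusted p of 0.142 and 0.0670, at log2 fold changes of 0.24 and -0.49, and with the replicate block 0.0233 and 0.0130. SLC25A34, a mitochondrial carrier, had 1, 3 and 3 counts in NT and 10, 12 and 9 in OXA.

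LAPTM5, a lysosomal membrane protein of blood cells, had 6, 1 and 3 counts in NT and 13, 10 and 17 in OXA. LAPTM4A and LAPTM4B, the widely expressed relatives, did not pass (edgeR adjusted p = 0.572 and 0.994). LAPTM5 and CXCR2 are both blood cell genes, and the sums of the blood cell marker lists, given above, lay in ranges that overlapped between NT and OXA. CD68 and CD8A make up most of those sums, and scarcer myeloid markers went both ways. ITGAM had 8, 4 and 4 counts in NT and 12, 6 and 16 in OXA, and CSF1R 6, 5 and 11 and then 12, 10 and 10. LYZ had 11, 3 and 10 counts in NT and 0, 0 and 4 in OXA. The part of blood cells in the counts of LAPTM5 and CXCR2 was not tested.

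Enzymes and their subunits formed a further group. PLA2G4D, a cytosolic phospholipase A2 of the epidermis (chromosome 15 from 42067009 to 42094562), had 1, 2 and 2 counts in NT and 18, 31 and 23 in OXA, a ratio of 14.4 (5.87 to 45.5). It lies in a cluster with PLA2G4E and PLA2G4F. PLA2G4F had 0, 3 and 2 counts in NT and 4, 8 and 9 in OXA, also without overlap but far below the limit of 30, and PLA2G4E had at most 2 counts in a library. PLA2G4A, the form that this line expresses, had an edgeR adjusted p of 0.812 at a log2 fold change of -0.070.

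CYP4F2, a hydroxylase of fatty acids and vitamin K, had 7, 6 and 2 counts in NT and 21, 13 and 11 in OXA. It belongs to a cluster of closely similar genes on chromosome 19, so the division of reads among them is uncertain. CYP4F3, its closest relative, rose from 54.4 ± 21.9 to 226 ± 9.88 normalized counts (n = 3, log2 fold change 2.05 ± 0.28 SE, adjusted p = 0.00975 by edgeR), where its libraries held 35, 47 and 86 counts untreated and 201, 206 and 266 treated. It passed in the 3 fits lacking an NT library and missed the threshold in those lacking an OXA library (edgeR adjusted p up to 0.0584). CYP4F11, CYP4F12 and CYP4F22 had log2 fold changes of 0.53, 0.40 and 0.27 (edgeR adjusted p = 0.224, 0.621 and 0.517), and CYP4F11 had an edgeR adjusted p of 0.0174 with the replicate block.

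CYP19A1, which encodes aromatase, the enzyme that makes estrogens, had 1, 4 and 7 counts in NT and 10, 12 and 17 in OXA. The gap between the groups was 3 counts. CA9, a carbonic anhydrase of the cell surface known for its induction by hypoxia, had 5, 1 and 3 counts in NT and 14, 16 and 15 in OXA. CA2, CA12 and CA14, which this line also expresses, had log2 fold changes between -0.13 and 0.19 and edgeR adjusted p between 0.528 and 0.886. The gene deposited as AC139530.1 (ENSG00000185527) is PDE6G in GENCODE 44, the inhibitory subunit of the phosphodiesterase of rod cells, with 3, 1 and 0 counts in NT and 15, 21 and 11 in OXA.

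SCO2, a copper chaperone of cytochrome c oxidase, belongs to the set through 1 of its identifiers only. The row ENSG00000284194 had 0, 4 and 0 counts in NT and 14, 21 and 24 in OXA. A second row of the same name, ENSG00000130489, had 24, 68 and 125 in NT and 29, 109 and 107 in OXA. Summed over both, SCO2 had 24, 72 and 125 counts in NT and 43, 130 and 131 in OXA, so the groups overlapped and the gene was not near-silent. How the authors' counting divided reads between the rows is uncertain, and the row in the set also overlaps TYMP on the same strand, which had 122 to 291 counts in NT.

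The remaining genes encode structural, adhesion and germline proteins. WFDC2, a small secreted protein with WAP domains (chromosome 20 from 45469753 to 45481532), had 2, 5 and 7 counts in NT and 21, 30 and 27 in OXA, and with a transcript of 567 nt it had the highest level per length of the set, 0.226 in NT and 1.28 in OXA. Its relatives SLPI, WFDC1 and WFDC3 overlapped between the groups, and PI3 was at 0. MYO1A, the myosin of the brush border of the intestine, had 1, 3 and 2 counts in NT and 13, 13 and 14 in OXA, an even level in raw counts. In the authors' normalized values its groups overlapped, at 0.394, 7.18 and 2.20 in NT and 18.9, 17.0 and 6.79 in OXA. Of the other class I myosins, MYO1E rose from 2027 ± 102 to 2657 ± 69.6 normalized counts (log2 fold change 0.39, edgeR adjusted p = 0.0429) and MYO1D fell from 3255 ± 212 to 2488 ± 98.2 (log2 fold change -0.39, edgeR adjusted p = 0.0495), each a call that held in 1 of the 6 fits leaving out 1 library, without NT library 1.

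MYBPC3, the myosin-binding protein C of heart muscle, had 4, 5 and 4 counts in NT and 14, 13 and 18 in OXA. VSIG1, a junction protein of the stomach, had 2, 3 and 5 counts in NT and 10, 10 and 12 in OXA. PIWIL2, a partner of small RNAs in the germline (chromosome 8 from 22275316 to 22357568), had 6, 4 and 5 counts in NT and 28, 13 and 20 in OXA. Its relative PIWIL4 had 12, 8 and 9 in NT and 6, 3 and 9 in OXA, and PIWIL1 was at 0. HRCT1 had 2, 5 and 6 counts in NT and 11, 20 and 12 in OXA.

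The protocadherins PCDHB10 and PCDHGA11 come from clusters of alternative first exons and near-copies on chromosome 5. PCDHB10 had 3, 5 and 5 counts in NT and 12, 10 and 10 in OXA, and PCDHGA11 had 4, 2 and 9 in NT and 13, 14 and 15 in OXA. Of 15 other PCDHB genes 2 were tested, and of 21 other genes of the gamma cluster 6, and none had an edgeR adjusted p under 0.05, with or without the replicate block. Their log2 fold changes ran from -0.65 (PCDHGA8) to 0.89 (PCDHB14). In these and in PCDHGB7 (0.80) the raw counts did not overlap between the groups, with PCDHGA8 lower in OXA and the others higher. The share of all tested genes without overlap was not counted, so the separation cannot be read as a trait of these clusters. The gamma genes share their last exons, so counts assigned to 1 of them are uncertain. The noncoding AL138781.1 had 3, 5 and 5 counts in NT and 11, 20 and 16 in OXA, and AC026412.3 had 7, 3 and 5 in NT and 8, 8 and 15 in OXA, a gap of 1 count and the lowest ratio of the set, 2.06 (1.08 to 4.11).

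**Figure D4:**
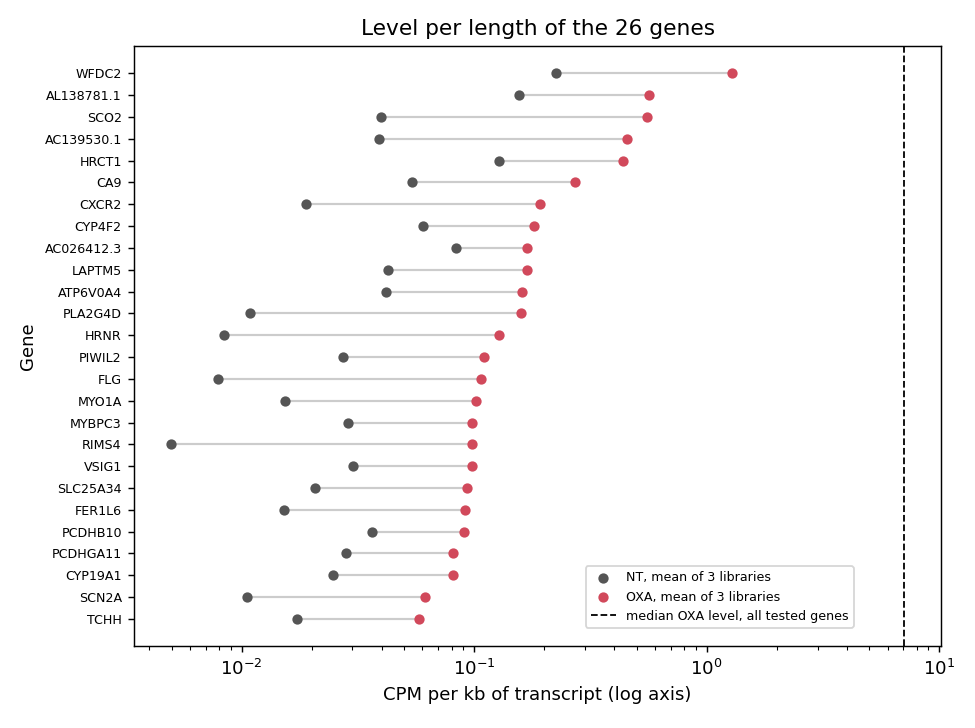
Mean level per length of the 26 genes in CPM per kb of transcript, on a log axis, grey for NT and red for OXA (means of 3 libraries). The dashed line is the median OXA level of the tested genes, 7.07, which lies to the right of every gene of the set, WFDC2 coming nearest at 1.28.

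Of 99 genes related to 21 of the 26, 42 were tested, 2 were higher (CYP4F3 and MYO1E) and 1 lower (MYO1D), with a median log2 fold change of 0.012, against 0.023 over all tested genes, of which 2.78% were higher and 2.29% lower. The replicate block gave 5 higher and 5 lower of the 42, where it called 12.1% of all tested genes higher and 10.9% lower.

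The genes lay on several chromosomes, and most of the neighbours that were tested did not pass the threshold by edgeR without the replicate block. Of the 26, 15 had a tested gene that overlapped them or was the nearest on either side within 50 kb. In 2 of the 15 (13.3%) such a neighbour was higher in OXA, against 145 of 3089 near-silent genes (4.69%). POLR3D, a subunit of RNA polymerase III 20715 nt from PIWIL2, rose from 1378 ± 117 to 1906 ± 65.5 normalized counts (n = 3, log2 fold change 0.47 ± 0.099 SE, adjusted p = 0.0419 by edgeR). UCA1, a long noncoding RNA 41695 nt from CYP4F2 on the other strand, rose from 3849 ± 675 to 7728 ± 1527 (log2 fold change 1.01 ± 0.18 SE, adjusted p = 0.0246 by edgeR). POLR3D kept its call in 1 of the 6 fits leaving out a library, without NT library 1, and UCA1 in 3, without NT library 1, NT library 2 or OXA library 3. With the replicate block the count was 4 of 15, where 17.3% of the near-silent genes had such a neighbour, the additions being CA9 (CCDC107) and VSIG1 (PSMD10). ARHGEF39, which overlaps CA9 on the other strand, fell from 968 ± 47.7 to 683 ± 32.9 (log2 fold change -0.50, edgeR adjusted p = 0.0358), a call kept in 1 of the 6 fits, without NT library 1.

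Scaled to depth, the highest OXA library was between 1.04 times (VSIG1) and 3.55 times (TCHH) the lowest, with a median of 1.56. OXA library 2 was the highest in 15 of the 26 genes, OXA library 3 in 6 and OXA library 1 in 5. In NT, also scaled to depth, library 1 was the lowest in 16 of the 26. Such counts were not made over other genes, so whether this order is one of the set or of the libraries was not tested.

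None of the 26 genes was in the list of 48 p53 targets, which was written from general knowledge and with earlier results of these data known. The list does not claim to be complete, so absence from it does not mean that a gene is no p53 target. Of the 44 tested, 38 were higher in OXA and 0 lower, with a median log2 fold change of 1.18, where 2.78% of all tested genes were higher. Without OXA library 1, 22 were higher. The 4 genes too low to test show what near-silent p53 targets looked like in the same libraries. SPATA18, a mitochondrial quality control gene, had 8, 2 and 6 counts in NT and 17, 17 and 10 in OXA and missed the set by 1 count. EDA2R, a death receptor relative, had 2, 0 and 2 counts in NT and 5, 3 and 13 in OXA, and PADI4 had 2, 2 and 2 in NT and 4, 7 and 2 in OXA. TP53AIP1, an apoptosis gene of mitochondria, lay the other way, with 3, 7 and 3 counts in NT and 0, 1 and 0 in OXA.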

How the data were processed

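RNA-seq libraries of 3 NT and 3 OXA samples were used, with the condition and number taken from the sample labels. For each gene and library the authors deposited 1 raw count beside 1 normalized value. The submitters' notes list Trimmomatic 0.32, STAR 2.7.5b, RSEM 1.3.3 and DESeq2 2.13 on GRCh38, without roles; since RSEM is listed, the whole-number counts may be rounded estimates. The annotation and strand setting are not given in the sources used here. The authors' normalized signal, the raw count times a factor that differs between genes and libraries, was used for 1 alternative only.

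The selection was applied to the raw counts. The members and all gene lists were chosen with earlier results of these data known, and the lists of relatives after the members were known. Genes named follow a fixed rule (the marker gene, the members with the most counts, those near the limits, list members and neighbours), and every member is given. The comparison of OXA and NT used the quasi-likelihood test of edgeR 4.0.16 (R 4.3.3) after filterByExpr and TMM, with Benjamini-Hochberg adjustment over 13727 genes and a threshold of 0.05. Of the 26 members 20 passed the filter, and no p-value is given for them. The fit was tested on simulated data with large changes, the same dispersion for every gene and no replicate effect. That test therefore cannot show how well small changes, such as those of most genes named here, are called. Normalized counts are TMM-scaled. The standard error is the log2 fold change divided by the root of F. Deviations from the group mean were correlated between NT and OXA libraries of the same number (r = 0.55, 0.54 and 0.31), so fits with the replicate number as a block are given where they change a call. The labels do not say what a number stands for.

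Positions, gene types and lengths of the canonical transcript came from GENCODE 44 (99.1% of identifiers matched), and promoters from RefSeq (18 of 26 matched). Ratios of summed counts have exact conditional binomial intervals at 95%, which cover counting error only. They leave out the spread between libraries and the selection on the same counts, which by itself favours intervals above 1. No chance test was made over the members. The values of 1 related gene are not reported here.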

Additional observations from a re-analysis of the deposited data

How the results depend on the processing

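The number of genes meeting the rule followed its limits. It was 13 with an NT sum of 10 or fewer, 42 with 20 or fewer and 11 with an OXA sum of 50 or more, against 26. With 1 library left out and the limits applied as means per library, it lay between 32 and 46, the construction itself being less strict with 5 libraries, and 18 of the 26 genes remained in all 6 such selections. PCDHGA11 and AC026412.3 remained in 4, and WFDC2, PIWIL2, CYP4F2, HRCT1, CYP19A1 and SLC25A34 in 5. Scaling to depth kept 23 of the 26, losing PIWIL2, CYP4F2 and AC026412.3, and added CAMK2B, AOX1 and AC124276.1. The authors' normalized values gave 33 genes, of which only 18 were among the 26, and the cause was not tested. The members lost there were PIWIL2, ATP6V0A4, AL138781.1, CYP4F2, MYO1A, CYP19A1, SLC25A34 and AC026412.3. Names from GENCODE 44, a choice made after seeing the data, left 24.

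Genes called in OXA against NT numbered 696, 1192 by DESeq2 and 3157 with the replicate block, and between 85 (without OXA library 1) and 1194 (without NT library 1) when 1 library was left out. Members next to a gene called higher numbered 2, 0 within 10 kb, 1 without a filter on low counts, 4 with the replicate block and between 0 and 2 with 1 library left out. For the p53 list 38 genes were higher, and between 22 and 39 with 1 library left out, with the replicate block giving 41. RLE factors left these counts within 1.5 times of their values. Most members had under 60 counts over 3 libraries, so their ratios have wide counting intervals, and those of many pairs of members overlap.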
